A study of Mus musculus with 2 samples.

Results

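Langerhans cells were the barcodes with at least 1 UMI of Cd207 and at least 1 of Epcam in single-cell RNA sequencing of skin immune cells, a UMI being a counted mRNA molecule. Cd207 encodes langerin, the lectin of Birbeck granules, and Epcam an epithelial adhesion molecule. The gate further asked for no UMI of Xcr1 or Clec9a (type 1 dendritic cells), under 2 of Ccr7 (migratory cells), under 3 of Cd209a, Mgl2 and Cd209d together (type 2 dendritic cells), at least 1% of UMIs from the MHC class II genes Cd74, H2-Aa, H2-Ab1 and H2-Eb1, none of Cd3d, Cd3e or Cd3g, and under 3 of the cycling genes Mki67 and Top2a. It held 156 of the 27589 barcodes with at least 200 genes and under 10% mitochondrial UMIs. The members were 53 of 8047 barcodes of the anti-Gr-1 library and 103 of 19542 of the isotype control library. The members were thus chosen by the measured UMIs of these genes, whose levels are a description.

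The anti-Gr-1 library came from the skin of wild-type C57BL/6 mice given the anti-Gr-1 antibody every other day from postnatal day 4 to day 14, a treatment meant to deplete monocytes. The isotype control library came from mice of the same strain given an isotype control antibody on the same days. Skin was taken at day 15 and digested with collagenase, live CD45+ cells were sorted, and 4 to 7 mice were pooled for each of the 2 libraries. Each group was therefore 1 library of 1 pool, no test between groups could be made, and fewer cells of a type cannot be told apart from a different yield of that pool.

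Langerhans cells are the mononuclear phagocytes of the epidermis. They arise from embryonic precursors, settle among keratinocytes around birth, and maintain themselves there with signals from the Csf1 receptor, whose epidermal ligand is interleukin-34, and from TGF-beta. They share features with macrophages, in origin and growth factor need, and with dendritic cells, in antigen presentation and in their move to lymph nodes after activation.

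The promoters of 4 genes that set these cells apart are shown because each holds a motif of a factor family tied to them. AP-1 (TGACTCA) is the family of Fos and Jun, and RUNX (TGTGGT) is the family of Runx3, which Langerhans cells need. The 250 bases before the start are given 5′ to 3′ from RefSeq on build GRCm38.p6, with the match on either strand in capitals. Cd207 lay at chr6:83677858-83678107 on the minus strand, Mfge8 at chr7:79149061-79149310 on the minus strand, Ltc4s at chr11:50238533-50238782 on the minus strand and H2-M5 at chr17:36989534-36989783 on the minus strand.
Cd207: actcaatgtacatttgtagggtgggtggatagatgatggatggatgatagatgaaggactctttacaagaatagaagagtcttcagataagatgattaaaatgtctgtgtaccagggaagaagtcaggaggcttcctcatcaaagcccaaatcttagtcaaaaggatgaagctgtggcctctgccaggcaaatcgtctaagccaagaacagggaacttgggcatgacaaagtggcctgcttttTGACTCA
Mfge8: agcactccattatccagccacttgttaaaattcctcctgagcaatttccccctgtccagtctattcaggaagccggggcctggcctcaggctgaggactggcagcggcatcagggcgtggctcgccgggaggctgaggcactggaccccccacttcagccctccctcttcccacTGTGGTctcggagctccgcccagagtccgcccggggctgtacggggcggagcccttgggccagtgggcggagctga
Ltc4s: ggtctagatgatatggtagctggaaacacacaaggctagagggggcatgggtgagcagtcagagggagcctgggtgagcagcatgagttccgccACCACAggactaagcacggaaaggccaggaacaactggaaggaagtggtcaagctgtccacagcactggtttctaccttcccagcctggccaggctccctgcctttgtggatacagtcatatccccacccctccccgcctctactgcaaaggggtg
H2-M5: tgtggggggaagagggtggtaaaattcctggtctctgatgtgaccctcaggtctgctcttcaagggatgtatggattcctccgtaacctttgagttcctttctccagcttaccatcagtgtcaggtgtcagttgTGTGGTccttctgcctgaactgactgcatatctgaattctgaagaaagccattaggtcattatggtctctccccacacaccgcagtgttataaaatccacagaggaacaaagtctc

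Cd207 held the AP-1 letters at bases -7 to -1 before its start, Mfge8 and H2-M5 held the RUNX letters, and Ltc4s held them on the opposite strand. Of 10 genes looked up, 8 had a window and 4 held a match of either motif. Over all 32851 windows of that length, 4.46% held the AP-1 letters and 14.0% the RUNX letters. A match is a run of letters and not a measured binding site.

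The anti-Gr-1 library had fewer barcodes and more UMIs per barcode than the isotype control, 9110 with a median of 7463 UMIs against 21311 with a median of 4460. Members followed this order of depth, with a median of 11195 UMIs and 2780 genes in anti-Gr-1 and 7314 UMIs and 2392 genes in isotype control cells. The monocyte gene Ly6c2 stood at 9.10 CPM (UMIs scaled to a library total of 1e6) over the whole anti-Gr-1 library and 32.4 CPM over the isotype control library. The cells' sexes differed between the libraries. By Xist and 4 Y-linked genes, 8 anti-Gr-1 members were female, 33 male, 3 both and 9 neither, against 50 female, 32 male, 9 both and 12 neither in the isotype control. The libraries shared 61 barcodes, none of them a member.

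The share of Langerhans cells was close between the libraries. They made up 0.659% of anti-Gr-1 barcodes (95% Clopper-Pearson interval 0.494% to 0.861%) and 0.527% of isotype control barcodes (0.430% to 0.639%). The ratio was 1.25, with an exact conditional interval of 0.880 to 1.76 that includes 1. Among male cells it was 1.33 (0.792 to 2.23), and among female cells 0.703 (0.288 to 1.49). These intervals, and those on CPM (exact Poisson) and on ratios of CPM below, cover counting error only and not the spread between mice.

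Cd207 ranged from 3 to 268 UMIs with a median of 20 in anti-Gr-1 members, and from 1 to 81 with a median of 9 in isotype control members. Epcam ranged from 2 to 35 UMIs (median 14) in anti-Gr-1 members and from 1 to 30 (median 10) in isotype control members. Summed over cells, Cd207 stood at 2605 CPM in anti-Gr-1 and 2033 CPM in isotype control members, and Epcam at 1379 CPM in anti-Gr-1 and 1468 CPM in isotype control members. No anti-Gr-1 member sat at the limit of 1 UMI of either gene, while 9 isotype control members sat at 1 UMI of Cd207 and 10 at 1 UMI of Epcam. In the isotype control, a further 22 barcodes missed the gate by Cd207 alone and 27 by Epcam alone. In anti-Gr-1, 0 missed it by Cd207 alone and 6 by Epcam alone. By Cd3 UMIs alone, 17 barcodes missed it in anti-Gr-1 and 95 in the isotype control.

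Known Langerhans cell markers that the gate had not used were present too. H2-M2, an MHC class Ib gene, stood at 1450 CPM (1356 to 1550) in anti-Gr-1 and 1588 CPM (1499 to 1681) in isotype control members. It was found in 96.2% of anti-Gr-1 and 93.2% of isotype control cells. Thinned to 2000 UMIs a cell, a depth that left out 0 and 11 members, these shares were 84.9% and 81.5%. In T cells of the same libraries, which should lack the gene, they were 0.200% of anti-Gr-1 and 0.452% of isotype control cells (median depths 6667.5 and 4628 UMIs before thinning). In single cells H2-M2 ran from 0 to 7827 CPM in anti-Gr-1 (median 1125) and from 0 to 13242 CPM in isotype control cells (median 1114), so the groups overlapped.

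Of the 10 genes of the Langerhans identity list, 8 had at least 20 UMIs over both libraries. Mfge8, a secreted bridge for the uptake of apoptotic cells, had 1516 CPM in anti-Gr-1 and 1879 CPM in isotype control members (ratio 0.807, interval 0.742 to 0.878). Cldn1, the tight junction claudin of the epidermis, had 695 and 802 CPM. Ltc4s, which makes leukotriene C4, had 569 CPM in anti-Gr-1 and 441 CPM in isotype control members (ratio 1.29, 1.11 to 1.51). The list's median log2 ratio, anti-Gr-1 over isotype control with a pseudocount of 10 CPM, was -0.25, beside -0.08 over all 6371 genes with at least 20 UMIs. Lad1, an anchoring filament protein of the epidermis, was below 20 UMIs, with 3 UMIs over anti-Gr-1 members against 9 UMIs over those of the isotype control.

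**Figure D1:**
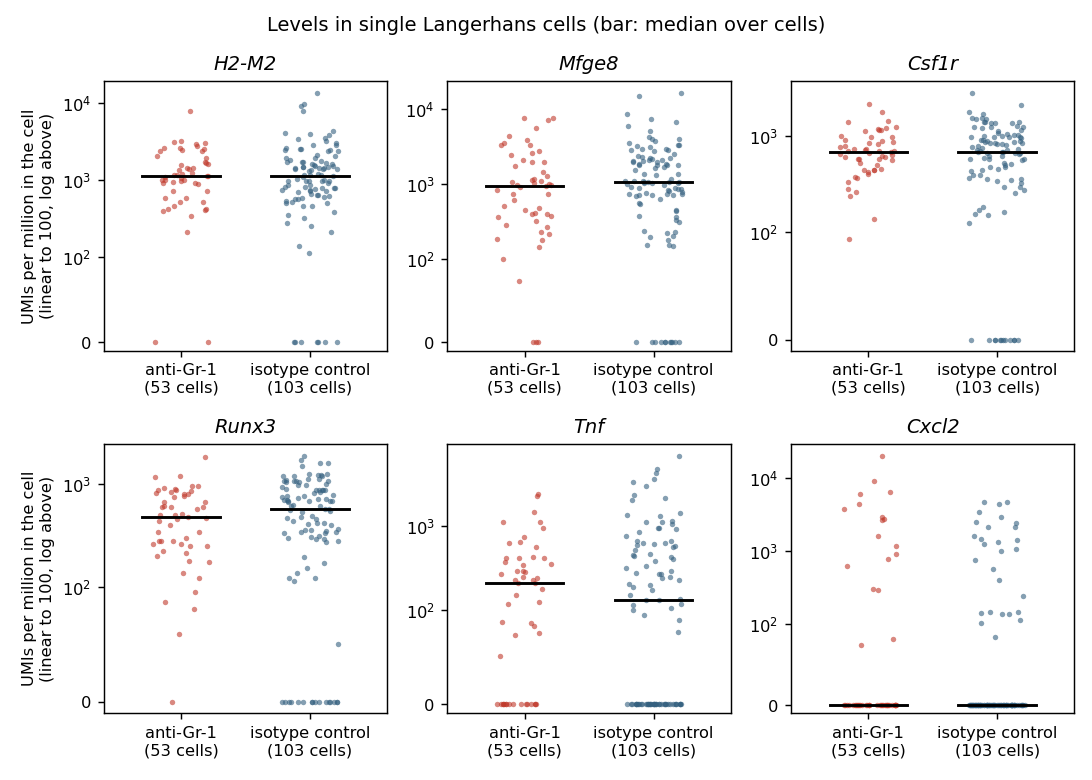
Levels of 6 genes in each Langerhans cell, in CPM of that cell (axis linear to 100 and log above), with 53 anti-Gr-1 cells left of 103 isotype control cells and a bar at the median. The libraries overlap for each of the 6 genes, and the medians of Cxcl2 are 0 in both.

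Langerhans cells had a set of genes at higher levels than 3 other gates of antigen-presenting cells in the same libraries. Barcodes at or above the Ccr7 limit were in none of these gates. Those that missed the Langerhans gate by Ccr7 alone had more H2-M2 and Mfge8 than the members, as given below. The comparison was with 3 gates, type 2 dendritic cells (624 anti-Gr-1 and 1350 isotype control cells), type 1 dendritic cells (163 and 169) and C1q-bearing macrophages (59 and 225). Of 1238 genes with at least 100 CPM in Langerhans cells of both libraries, 126 (10.2%) were at least 2-fold above the highest of the 3 gates in both. The 126 include Cd207 and Epcam, which chose the members. The 1238 genes were admitted by their level in Langerhans cells alone, so the count is a description. The 25 furthest above, by the smaller of the ratios in the libraries, are drawn in the plot of gates. Type 2 dendritic cells were barcodes with at least 3 UMIs of Cd209a, Mgl2 and Cd209d, type 1 with at least 1 of Xcr1 or Clec9a, and macrophages with at least 3 of C1qa, C1qb and C1qc, all without Epcam and Cd3 UMIs.

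The most separated gene was H2-M5, another MHC class Ib gene, with 1118 CPM in anti-Gr-1 and 1015 CPM in isotype control Langerhans cells and at most 2.55 CPM in any of the 3 gates. It was found in 52 of 53 anti-Gr-1 and 86 of 103 isotype control members. Ptgs1 (cyclooxygenase 1) had 699 and 836 CPM in Langerhans cells, and its highest gate in the anti-Gr-1 library was the macrophages, with 11.8 CPM. P2rx2, an ATP-gated ion channel, had 338 and 317 CPM, Tmem45b 199 and 221 CPM, and the amino acid transporter Slc36a2 143 and 197 CPM, all with under 1 CPM in each gate. Tnfaip2, a TNF-induced gene, had 1764 and 1666 CPM, and its highest gate was the macrophages, with 30.7 and 131 CPM. Ffar2, a receptor for short-chain fatty acids, had 166 and 202 CPM, and the gelatinase Mmp9 141 and 182 CPM.

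Adhesion genes of epithelia were part of this set. Cdh1 (E-cadherin, which holds Langerhans cells to keratinocytes) had 385 CPM in anti-Gr-1 and 473 CPM in isotype control members, and 22.8 CPM in type 2 dendritic cells of the isotype control, the highest of the 3 gates there. T cells, which were not among the 3 gates, had 96.9 and 138 CPM. Tjp1 (ZO-1) had 116 and 108 CPM, and the protocadherin Pcdh7 237 and 297 CPM. Of the 6 epithelial adhesion genes at 100 CPM, Cdh1, Cldn1 and Tjp1 were 2-fold over the gates. The membrane protease St14 (matriptase) and its inhibitor Spint1 were both in the set, with 133 and 107 CPM for St14 and 126 and 143 CPM for Spint1.

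The lipid mediator list had 4 of 7 measured members over the gates. Hpgds, the haematopoietic prostaglandin D synthase, had 1122 CPM in anti-Gr-1 and 1292 CPM in isotype control members. It was found in 100% and 94.2% of cells before thinning. Alox5, the 5-lipoxygenase that starts leukotriene synthesis, had 295 and 313 CPM and at most 29.0 CPM in the gates. Ltc4s and Ptgs1 were the others. Runx3 was the only one of 9 measured lineage transcription factors over the 3 gates, and Smad7, an inhibitor of TGF-beta signalling, the only one of 3 TGF-beta genes. T cells, not among the 3 gates, had 336 and 419 CPM of Runx3, against 514 and 657 CPM in Langerhans cells. Smad7 was higher in T cells, with 390 and 382 CPM, than in Langerhans cells, with 201 and 236 CPM. Il1r2, the decoy receptor for interleukin-1, had 280 and 289 CPM, and at most 70.1 CPM in the gates.

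Defb6, Lgals7, Krt15 and Col16a1 were also among the 25, but sat in few cells. Krt15 was found in 9 cells of each library, and 1 cell held 45.3% of its UMIs in anti-Gr-1 and 68.2% in the isotype control. Defb6 was found in 7 and 12 cells, with 62.3% and 52.5% of its UMIs in 1 cell. Defb6, Lgals7 and Krt15 are genes of keratinocytes, whose 12 markers summed to 1200 CPM in anti-Gr-1 and 824 CPM in isotype control members. A subset of these markers that includes Lgals7 and Krt15 had 666 UMIs in anti-Gr-1 and 515 UMIs in isotype control members. The 3 cells with the most UMIs of this subset held 83.9% of them in anti-Gr-1 and 79.8% in the isotype control. Whether these barcodes hold a keratinocyte as well was not tested.

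**Figure D2:**
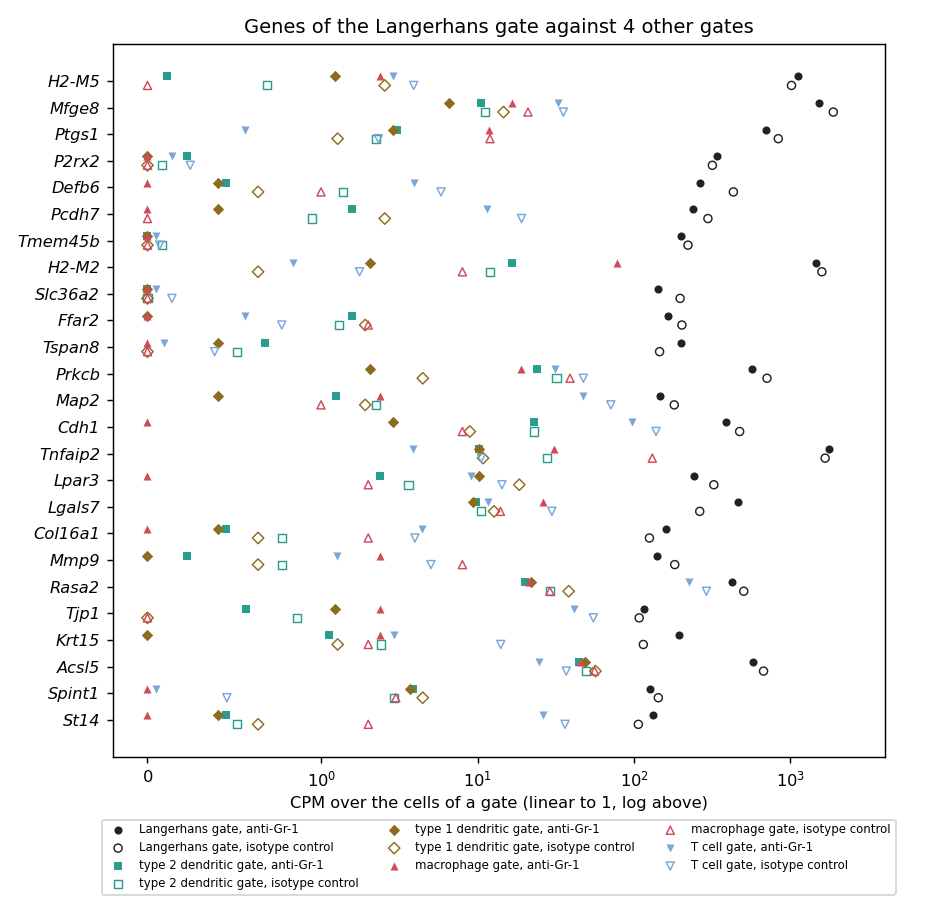
The 25 genes furthest above the 3 antigen-presenting gates, with CPM over the cells of each gate on the x axis (linear to 1 and log above), filled symbols for anti-Gr-1 above open symbols for isotype control. Langerhans cells (circles) lie at 100 CPM or more for each gene, and T cells (down triangles), which did not enter the choice, come closest for Rasa2, with 224 and 290 CPM.

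Other genes were low in Langerhans cells against the 3 gates. Of 798 genes with at least 100 CPM in all 3 gates of both libraries, 51 (6.39%) were at least 2-fold under the lowest gate in both. These 798 genes were admitted by their level in the 3 gates alone, so this count too is a description. Ccr2, the receptor that brings monocytes from blood, had 28.2 CPM in anti-Gr-1 and 35.1 CPM in isotype control Langerhans cells, against at least 272 CPM in each gate. Ccl4, a chemokine for monocytes and T cells, had 8.30 and 32.4 CPM, against at least 447 CPM in each gate. Mpeg1 (perforin 2) had 36.5 and 27.0 CPM and the lysosomal Psap 295 and 417 CPM, against at least 289 and 1782 CPM in each gate. Crip1 stood at 458 and 377 CPM, under at least 3058 CPM in each gate.

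Before thinning, the receptor gene Csf1r was found in 100% of anti-Gr-1 and 88.3% of isotype control members. It had 672 CPM (608 to 741) and 806 CPM (743 to 873), a ratio of 0.834 (0.733 to 0.947). Type 1 dendritic cells had 10.6 and 31.8 CPM and macrophages 849 and 647 CPM. Csf2ra, the GM-CSF receptor chain, had 270 and 287 CPM, and Flt3, the dendritic growth factor receptor, 11.6 and 21.6 CPM. Runx3 had 514 CPM in anti-Gr-1 and 657 CPM in isotype control members (ratio 0.783, 0.677 to 0.905), Id2 237 and 280 CPM (ratio 0.846, 0.679 to 1.05) and Tgfb1 144 and 164 CPM (ratio 0.878, 0.659 to 1.16). Over all members, the intervals of Csf1r and Runx3 lay below 1, and those of Id2 and Tgfb1 included it. In male cells the ratios were 0.665 (0.555 to 0.798) for Csf1r, 0.593 (0.488 to 0.720) for Runx3 and 0.958 (0.625 to 1.48) for Tgfb1. In female cells, of which 8 were anti-Gr-1, they were 0.870 (0.651 to 1.15), 0.954 (0.694 to 1.29) and 0.357 (0.138 to 0.776). The interval of Id2 included 1 in both sexes.

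Barcodes that missed the gate only by Ccr7, 14 in anti-Gr-1 and 19 in the isotype control, had some of these genes and little of others. H2-M2 stood at 3407 CPM in anti-Gr-1 and 3550 CPM in isotype control cells of this kind, and Mfge8 at 2202 and 2908 CPM. Csf1r was at 30.4 and 19.2 CPM, and Ltc4s at 75.9 and 81.4 CPM. Those that missed it only by Xcr1 or Clec9a, 55 in anti-Gr-1 and 39 in the isotype control, were low in both, with 26.0 and 22.4 CPM of H2-M2 and 9.74 and 8.95 CPM of Csf1r. Barcodes outside by Cd3 alone had 1426 and 1028 CPM of H2-M2 and 670 and 527 CPM of Csf1r, near the members' levels in anti-Gr-1 and below them in the isotype control.

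Between the libraries, most genes of Langerhans cells differed little. Of 3037 genes with at least 50 UMIs over both libraries and 50 CPM in one, 16 (0.527%) were at least 2-fold higher in anti-Gr-1 members and 22 (0.724%) at least 2-fold lower, on the log2 scale with a pseudocount of 10 CPM. These are counts past a fold and not of genes that passed a test. With the cell with the most UMIs of each gene left out of each library, an alternative chosen after seeing the data, 10 genes were higher and 28 lower. The shared calls were 9 and 20. Of the 24 genes with the largest differences under the naming rule, 9 had 50% or more of their UMIs in 1 cell of the higher library.

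**Figure D3:**
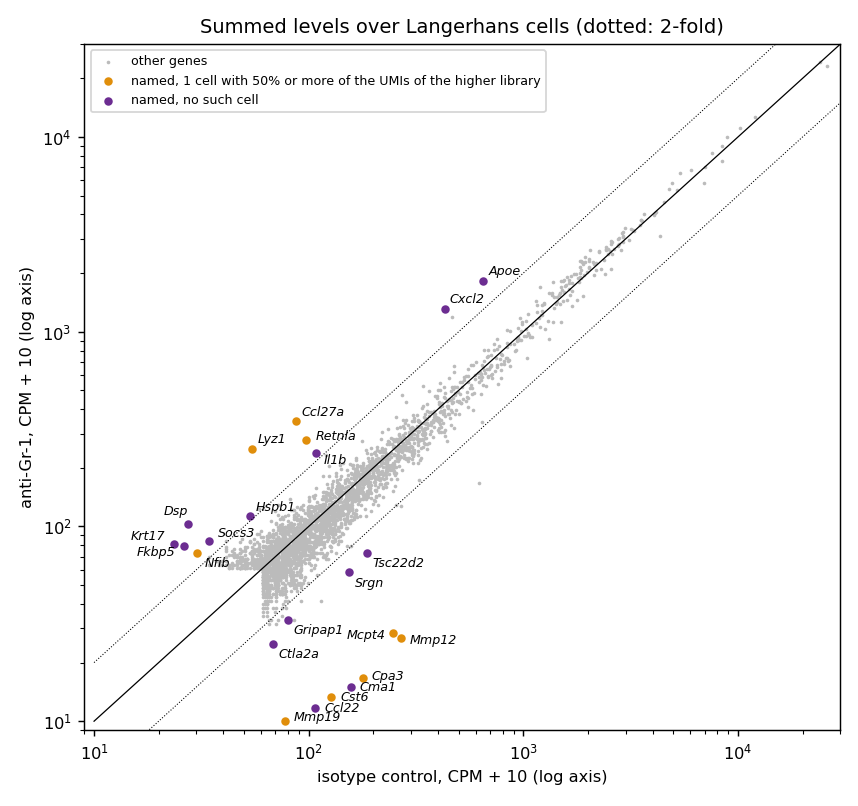
CPM summed over Langerhans cells with 10 added, anti-Gr-1 on the y axis and isotype control on the x axis (both log), 1 point per gene of the 3037. Named genes are purple, or orange where 1 cell held 50% or more of the UMIs in the higher library, and the genes past the dotted 2-fold lines are 16 above and 22 below.

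The chemokine Cxcl2, which draws neutrophils, was higher in anti-Gr-1 members. It stood at 1302 CPM (1213 to 1397) in anti-Gr-1 and 419 CPM (374 to 469) in isotype control members, a ratio of 3.11 (2.72 to 3.55). It was found in 18 of 53 and 28 of 103 cells, and after thinning in 26.4% and 17.4%, beside 4.93% and 10.6% of T cells. The ratio was 6.77 (5.54 to 8.31) in female cells, of which 8 were anti-Gr-1, and 4.04 (3.14 to 5.25) in male cells. Without the cell with the most UMIs it was 934 CPM in anti-Gr-1 and 357 CPM in isotype control members. The other gates went the other way. Macrophages, above the members in both libraries, had 2135 CPM of Cxcl2 in anti-Gr-1 and 3354 CPM in the isotype control. Type 2 dendritic cells had 555 and 730 CPM, type 1 dendritic cells 28.6 and 258 CPM and T cells 73.6 and 193 CPM.

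Fkbp5, a co-chaperone of the glucocorticoid receptor that the hormone induces, was higher across many cells. It was found in 21 of 53 anti-Gr-1 cells and 9 of 103 isotype control cells, or 15.1% and 4.35% after thinning. T cells had it in 10.6% and 8.05% after thinning, so the share in isotype control members is not above that of T cells. Its level was 69.7 CPM (50.2 to 94.2) in anti-Gr-1 and 16.2 CPM (8.36 to 28.3) in isotype control members, a ratio of 4.31 (2.23 to 8.99). In female cells, with 2 and 8 UMIs, the Fkbp5 ratio was 0.867 (0.0897 to 4.34). In macrophages Fkbp5 had 42.6 CPM in anti-Gr-1 and 9.98 CPM in the isotype control, and it was also higher in anti-Gr-1 in type 2 dendritic cells (13.9 and 7.57 CPM), type 1 dendritic cells (13.1 and 8.91 CPM) and T cells (58.3 and 44.8 CPM). Of the 8 measured members of the glucocorticoid list 4 were higher and 4 lower, and Fkbp5 alone was past 2-fold. Mt1, a metallothionein, had 609 and 466 CPM (ratio 1.31, 1.12 to 1.52), and the phosphatase gene Dusp1 689 and 589 CPM (ratio 1.17, 1.02 to 1.34). Tsc22d3 had 579 and 674 CPM (ratio 0.859, 0.747 to 0.987), and Klf9 13.3 and 21.6 CPM.

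Socs3, a feedback inhibitor of cytokine receptors, had 74.7 CPM in anti-Gr-1 and 24.3 CPM in isotype control members (ratio 3.08, 1.75 to 5.65), and 1 anti-Gr-1 cell held 33.3% of its UMIs. Il1b (interleukin-1 beta) had 227 and 98.4 CPM (ratio 2.31, 1.73 to 3.11), and 1 anti-Gr-1 cell held 32.1% of its UMIs. Without the cell with the most UMIs the log2 ratio was 0.98 for Socs3 and 0.77 for Il1b, so neither was then past 2-fold. Il1b was found in 34.0% of anti-Gr-1 and 35.0% of isotype control cells, and type 2 dendritic cells had 2473 and 2944 CPM. Its ratio was 0.385 (0.0996 to 1.08) in female and 3.66 (2.31 to 6.05) in male cells. Il1rn, the interleukin-1 receptor antagonist, had 8 UMIs in 1 anti-Gr-1 cell and 20 UMIs in 6 isotype control cells.

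Several other higher genes were concentrated. Apoe had 1813 CPM in anti-Gr-1 and 642 CPM in isotype control members (ratio 2.83, 2.54 to 3.15), in 43.4% and 45.6% of cells, and 1 cell held 39.6% and 31.1% of its UMIs. In female cells the Apoe ratio was 0.829 (0.496 to 1.33). Lyz1 and Retnla, genes of macrophages, were found in 6 anti-Gr-1 cells each and in 7 and 22 isotype control cells. Ccl27a, Dsp, Krt17 and Hspb1, genes of keratinocytes, were found in 5 to 8 anti-Gr-1 cells, and Nfib in 3. The macrophage markers, 10 genes, summed to 335 CPM in anti-Gr-1 and 267 CPM in isotype control members, and the part of such cells in these values was not tested.

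The lower genes included mast cell proteases and genes of sterol metabolism, and also Xist and Tsix, which go with the cells' sex. The mast cell proteases Cpa3, Cma1 and Mcpt4 had 4, 3 and 11 UMIs in anti-Gr-1 and 125, 109 and 176 UMIs in isotype control members. The mast list of 6 genes summed to 38.2 CPM in anti-Gr-1 and 608 CPM in isotype control members. For a subset of this list that includes these 3 proteases, 1 isotype control cell held 60.4% of the UMIs in its library. Cst6, a cysteine protease inhibitor of keratinocytes, had 2 UMIs over anti-Gr-1 and 87 UMIs over isotype control members. The 87 lay in 8 isotype control cells, of which 1 held 55.2%. Mmp12 and Mmp19 rested on 1 isotype control cell, with 95.8% and 92.0% of their UMIs. Ccl22, a chemokine of activated dendritic cells, had 1 UMI in anti-Gr-1 and 72 UMIs in 10 isotype control cells. The 7 markers of mature migratory dendritic cells summed to 3.32 CPM in anti-Gr-1 and 136 CPM in isotype control members. These UMIs too were concentrated. In the isotype control, 1 cell held 47.2% of the Ccl22 UMIs, and 63 of the 72 lay in female cells. For a subset of these markers that includes Ccl22, 1 isotype control cell held 44.4% of the UMIs.

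Among other lower genes, Tsc22d2, Srgn, Ctla2a and Gripap1 were each found in 35 or more isotype control cells. Tsc22d2 had 63.0 CPM in 22 anti-Gr-1 cells and 177 CPM in 52 isotype control cells. Srgn (serglycin, a granule proteoglycan) had 48.1 and 144 CPM, with 1.39 times the isotype control level in male cells (0.657 to 3.15) and 0.198 times in female cells (0.0525 to 0.530). In each library 1 cell held much of the Srgn, 37.9% of its UMIs in anti-Gr-1 and 34.6% in the isotype control. Without that cell its log2 ratio was -1.39. T cells had 1444 and 1312 CPM of Srgn. Ctla2a had 9 UMIs in 8 anti-Gr-1 cells and 43 UMIs in 35 isotype control cells, where T cells stood at 2854 and 3134 CPM. Gripap1 had 23.2 and 70.1 CPM.

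Tnf, a proinflammatory cytokine, was lower in anti-Gr-1 members without reaching 2-fold. It stood at 335 CPM (291 to 385) in anti-Gr-1 and 630 CPM (574 to 689) in isotype control members, a ratio of 0.532 (0.449 to 0.629). Single cells reached 2395 CPM in anti-Gr-1 and 6757 CPM in the isotype control. The median cell went the other way, with 210 CPM in anti-Gr-1 and 134 CPM in isotype control members. After thinning, 37.7% and 40.2% of cells had a Tnf UMI.

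Hmgcs1, Insig1 and Sqle were among the 22 lower genes. Hmgcs1 makes the precursor of mevalonate, Sqle oxidises squalene, and Insig1 holds back the sterol sensor. A list of 20 genes of sterol metabolism was therefore drawn up after these values were seen, and since it holds genes chosen for being lower, its counts are a description.

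Of the 20 genes, 13 had at least 20 UMIs, and all 13 were lower in anti-Gr-1 members, with a median log2 ratio of -0.57. Of all 6371 genes at that depth, 59.8% were below 0. Hmgcs1 had 118 CPM in anti-Gr-1 and 259 CPM in isotype control members (ratio 0.455, 0.342 to 0.6005), Sqle 21.6 and 60.7 CPM (ratio 0.356, 0.176 to 0.671) and Insig1 23.2 and 56.6 CPM (ratio 0.410, 0.207 to 0.766). Msmo1, a demethylase of the later pathway, had 103 and 163 CPM (ratio 0.631, 0.457 to 0.863). Srebf2, the factor that drives the pathway, had 158 and 173 CPM (ratio 0.913, 0.693 to 1.20).

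The sum of the 20 genes was 752 CPM in anti-Gr-1 and 1266 CPM in isotype control members, a ratio of 0.594 (0.530 to 0.665). Single anti-Gr-1 cells ran from 102 to 3894 CPM with a median of 595 CPM, and isotype control cells from 0 to 4699 CPM with a median of 984 CPM, so that the ranges overlapped. Above 1000 CPM lay 12 of 53 anti-Gr-1 and 51 of 103 isotype control cells. This count depends on depth and was not repeated after thinning. The shallowest member had 3233 UMIs in anti-Gr-1 and 755 UMIs in the isotype control, where 1 sterol UMI is above 1000 CPM. The ratio of the summed CPM was 0.539 (0.413 to 0.695) in female and 0.712 (0.605 to 0.837) in male cells.

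Other cells of the same libraries had ratios of this sum nearer to 1. Type 2 dendritic cells had 406 CPM in anti-Gr-1 and 423 CPM in the isotype control (ratio 0.960, 0.919 to 1.002), type 1 dendritic cells 349 and 418 CPM (0.834, 0.752 to 0.925) and T cells 421 and 521 CPM (0.809, 0.788 to 0.830). Macrophages had 206 and 289 CPM (0.713, 0.554 to 0.909). Langerhans cells also had the highest sum of these gates in both libraries. Whether the difference in ratio between gates exceeds the spread between mice could not be tested. Hmgcs1 is the 1 gene of 13 with a window in the promoter table that held the sterol response letters TCACNCCAC on either strand, where N is any base. These letters were in 1.05% of all windows. The 250 bases before its start, chr13:119690101-119690350 on the plus strand, follow with the match in capitals.
Hmgcs1: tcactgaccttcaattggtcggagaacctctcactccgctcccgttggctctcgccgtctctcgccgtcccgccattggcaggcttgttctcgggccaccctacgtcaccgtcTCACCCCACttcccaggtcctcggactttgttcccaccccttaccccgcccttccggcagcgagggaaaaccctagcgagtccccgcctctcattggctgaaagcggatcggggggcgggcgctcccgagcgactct

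**Figure D4:**
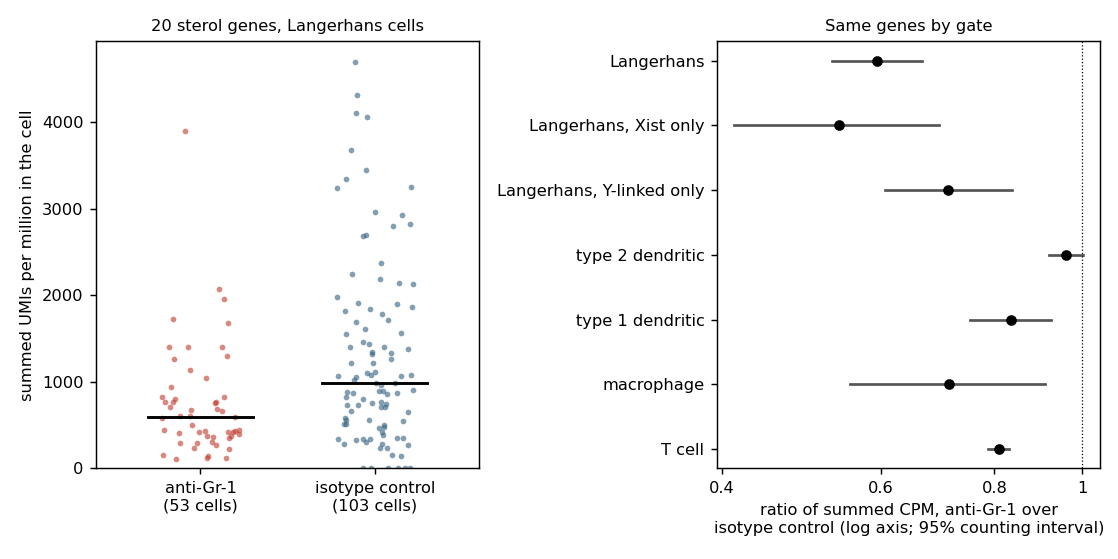
Left, summed CPM of the 20 sterol genes in each Langerhans cell, 53 anti-Gr-1 cells left of 103 isotype control cells, with a bar at the median. Right, the ratio of summed CPM, anti-Gr-1 over isotype control, with its 95% counting interval on a log axis for Langerhans cells, for those with Xist or Y-linked UMIs alone, and for 4 other gates. The ratio of Langerhans cells is 0.594 and that of type 2 dendritic cells 0.960.

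MHC class II machinery had 3 of 10 measured members higher and 7 lower, with a median log2 ratio of -0.10 and none past 2-fold. H2-DMa, a peptide editor of class II, had 1646 CPM in anti-Gr-1 and 1616 CPM in isotype control members, and Ciita, the class II transactivator, 216 and 268 CPM. The MHC class I pathway had 6 of 15 higher and 9 lower with a median of -0.09, and B2m stood at 1540 and 1645 CPM. Among all 6371 genes with at least 20 UMIs, 0.675% were at least 2-fold higher and 1.19% at least 2-fold lower.

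Of 10 TGF-beta axis genes, 3 were higher and 7 lower, with a median of -0.16. The receptor Tgfbr1 had 97.9 CPM in anti-Gr-1 and 147 CPM in isotype control members (ratio 0.666, 0.477 to 0.923). Of 10 epithelial adhesion genes, 3 were higher and 7 lower, and Jup (plakoglobin) had 105 and 62.0 CPM (ratio 1.69, 1.13 to 2.52). Of 16 lineage transcription factors, 6 were higher and 10 lower with a median of -0.10, and Spi1 (PU.1) had 456 and 386 CPM.

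The maturation list had 3 of 11 measured members higher and 8 lower. Cd86, a costimulatory ligand, was found in 100% of anti-Gr-1 and 74.8% of isotype control cells, at 345 and 394 CPM. These shares are from before thinning, with a median of 11195 UMIs in anti-Gr-1 and 7314 UMIs in isotype control members. Cd83, which stabilises surface class II, had 904 and 740 CPM, and Cd40 had 7 and 23 UMIs. Among 6 dendritic-shared genes 1 was higher and 5 lower, with a median of -0.43, and the integrin Itgax (CD11c) had 113 and 173 CPM (ratio 0.654, 0.480 to 0.884).

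Cytokine and sensor genes were mixed. Of 13 measured genes of the interleukin-1 family and inflammasome, 6 were higher and 7 lower with a median of -0.04, and the adaptor Pycard had 134 and 97.1 CPM. Il12a, Il12b and Il27, which steer T cells, had no UMI in either library, and 3 of the 12 polarising cytokines reached 20 UMIs. Of 16 NF-kB and TNF response genes, 8 were higher and 8 lower. The lectin receptor Clec4n (dectin 2) had 119 and 62.0 CPM (ratio 1.93, 1.31 to 2.85), and 4 of 7 pattern recognition receptors were higher. Of 6 interferon response genes 3 were higher and 3 lower, with Ifitm3 at 29 UMIs in anti-Gr-1 members and 6 UMIs in those of the isotype control, and of 4 proliferation genes 2 were higher and 2 lower.

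Chemokine ligands had the median furthest from 0 among the pathway lists, -0.98 over 7 genes, of which Cxcl2 was past 2-fold higher and Ccl2, Ccl4 and Ccl22 past 2-fold lower. That median was the value of Ccl9, of which 1 isotype control cell held 78.0% of the UMIs. Without the cell with the most UMIs of each gene it was -0.16, over the 5 chemokine ligands with at least 50 UMIs it was -0.15, and over male cells alone, with 4 genes measured, it was 2.29. Cxcl16, the membrane-bound ligand, had 324 CPM in anti-Gr-1 and 361 CPM in isotype control members. Of 3 chemokine receptors, 2 were higher and 1 lower. Macrophage-shared genes had 8 of 12 higher with a median of 0.26, and -0.29 once barcodes scored as doublets were removed. Of 9 lipid mediator genes 5 were higher and 4 lower. Of 10 growth factor receptor and survival genes 4 were higher and 6 lower, with Bak1, a pore former of apoptosis, at 17 and 4 UMIs. Of 15 lysosome and tetraspanin genes, 6 were higher and 9 lower, and the tetraspanin Cd9 had 1112 and 972 CPM.

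**Figure D5:**
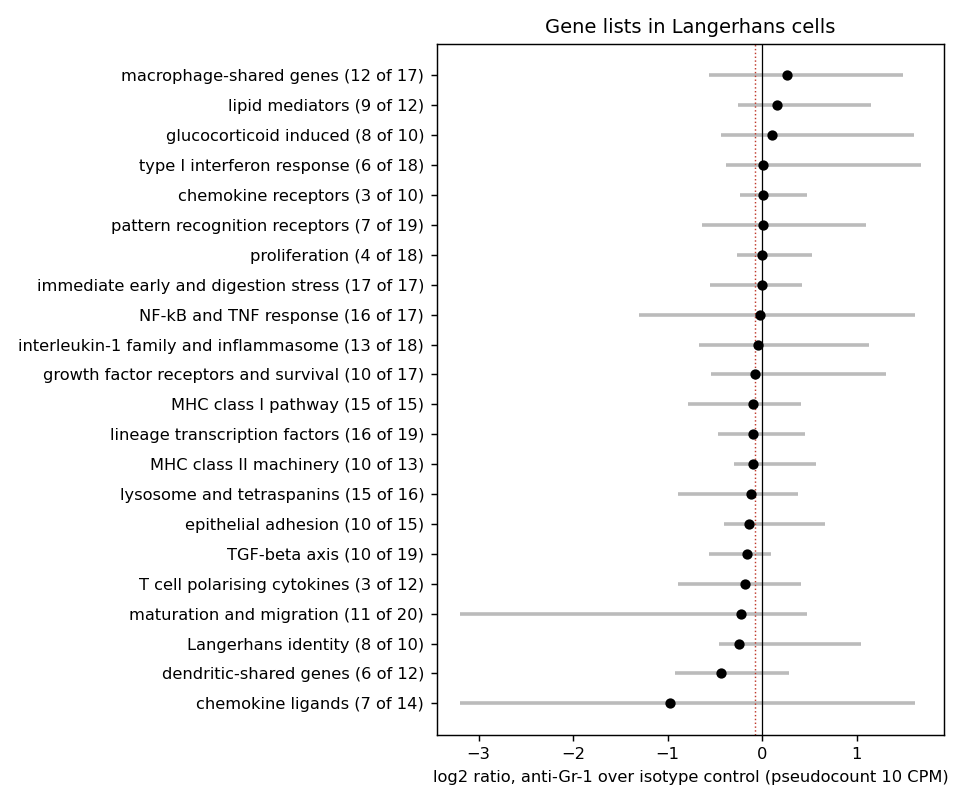
Median log2 ratio, anti-Gr-1 over isotype control, of each pathway list (point) and the range of its members (line), with the number of members at 20 UMIs or more in brackets. The red dotted line is the median of all 6371 genes, -0.08, and of these 22 pathway lists the chemokine ligands lie furthest from it, at -0.98.

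The variance over the mean of each gene was taken among single members at 2000 UMIs a cell. For genes with few UMIs a cell it lies near that of pure counting over a wide range of spreads. It therefore cannot show that members were alike. Its median over 680 genes was 1.12 among anti-Gr-1 members and 1.14 among those of the isotype control, close to that of pure counting. The widest in both libraries included Apoe, with 24.6 and 15.4, Atf3, with 8.21 and 6.34, Fos, with 7.24 and 6.34, and Jun, with 8.32 and 6.33. Fos, Jun and Atf3 are immediate early genes, which cells switch on quickly after a stimulus. The 17 genes of that list summed to 25180 CPM in anti-Gr-1 and 25574 CPM in isotype control members, a median log2 ratio of -0.01.

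The marker lists of the remaining cell types had lower sums than the keratinocyte list in both libraries. Neutrophil markers, 6 genes, summed to 0 CPM in anti-Gr-1 and 5.39 CPM in isotype control members, and erythroid markers to 0 and 5.39 CPM. The monocyte list gave 282 and 166 CPM, mostly Fn1, with Ly6c2 and Chil3 at 0 in both. T cell markers gave 66.4 and 116 CPM, B cell markers 284 and 332 CPM, nearly all of it Ighm with Cd79a and Ms4a1 at 0, fibroblast markers 8.30 and 17.5 CPM and melanocyte markers 11.6 and 0 CPM. Markers of type 1 dendritic cells gave 264 and 309 CPM, and those of type 2 dendritic cells 295 and 212 CPM, of which Il1b gave 227 and 98.4 CPM.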

How the data were processed

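The deposited values were raw UMI counts for each gene in each barcode. Per the file headers, the authors used Cell Ranger 4.0.0, and the submitters' processing notes name the build mm10. The files held barcodes already called as cells, of at least 500 UMIs. Counts were used as deposited with Python 3.11.15, numpy 2.4.6, scipy 1.17.1, pandas 2.3.3, scanpy 1.11.5 and matplotlib 3.10.9. The counts of members were summed per library, 602707 UMIs for anti-Gr-1 and 741756 for the isotype control, and given as CPM. No doublets were removed from the main values. As an alternative, the barcodes with the highest Scrublet scores were removed at 0.8% per 1000 barcodes, 4 of them anti-Gr-1 and 0 isotype control members. The T cell gate had at least 2 Cd3 UMIs, no Epcam and MHC class II under 1%. Genes named between libraries are the 12 highest and 12 lowest log2 ratios past the filter. Those named against gates are the 25 furthest above, and of each of 22 pathway and 14 marker lists up to 4 of highest level and 2 of largest ratio were taken. Gate, mitochondrial, ribosomal, receptor, unnamed and sex-linked genes were left out. The genes given for misses, variation and lower gates were chosen after their values were seen. The members and lists were chosen with earlier results of these data known. Some genes that these rules select are not reported here. Scripts were checked on simulated data.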

Additional observations from a re-analysis of the deposited data

Results flagged for a closer look

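The ratio of anti-Gr-1 to isotype control ran in opposite directions in female and male Langerhans cells for 4 named genes, with counting intervals on either side of 1. The difference itself was not tested, since each sex came from 1 pool. Lyz1 had 144 UMIs in 5 anti-Gr-1 and 3 UMIs in 3 isotype control male cells (ratio 30.7), and 0 UMIs in the 8 anti-Gr-1 female cells against 29 UMIs in 3 of 50 isotype control female cells. Retnla had 160 UMIs in 5 anti-Gr-1 and 7 UMIs in 7 isotype control male cells (ratio 14.6), and 0 and 54 UMIs in female cells. Ccl27a had 203 UMIs in 5 anti-Gr-1 and 24 UMIs in 4 isotype control male cells (ratio 5.40), and 0 and 17 UMIs in female cells. For these 3 genes 1 anti-Gr-1 cell held 62.5%, 63.1% and 75.9% of the male UMIs. Epcam, which chose the members, was present in all 8 anti-Gr-1 and 50 isotype control female cells with a ratio of 1.31 (1.08 to 1.57), and in all 33 anti-Gr-1 and 32 isotype control male cells with a ratio of 0.749 (0.659 to 0.851).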

How the results depend on the processing

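No paired analysis was possible because each group was 1 library and the labels carry no replicate numbers. The ratio of the shares, 1.25, was 0.703 in female cells and 0.859 with no limit on Cd3 genes, a setting chosen after seeing the data, and lay between 0.974 and 1.68 in the other settings. The count of 16 genes higher past 2-fold became 9 without barcodes scored as doublets, 28 in male cells and 6 after thinning. It was 7 with a pseudocount of 50 CPM, 10 without the cell with the most UMIs, 43 at 20 UMIs with no limit on CPM and 69 with no filter. Of the 16, 2 were also past 2-fold higher in female cells, 11 in male cells and 2 after thinning. The count of 22 lower genes became 46 without doublets, 63 in female and 10 in male cells, and 11 after thinning. It was 45 with equal weight per cell, 43 and 9 with pseudocounts of 1 and 50 CPM, 76 at 20 UMIs and 136 with no filter. Of the 22, 6 were also past 2-fold lower in female cells, 0 in male cells and 4 after thinning. Fewer genes passed the filter in these settings, 1276, 1867 and 789 against 3037. Of 403 values of 31 named genes over 13 settings, 315 stayed within the counting interval, 74 moved beyond it and 14 changed sign. In female cells the log2 ratio was -3.23 for Lyz1, -2.56 for Ccl27a, -0.37 for Dsp and Nfib, -0.0089 for Krt17, -0.14 for Fkbp5, -4.05 for Retnla, -0.26 for Apoe and -1.19 for Il1b. It was -0.11 for Apoe without cells carrying genes of other lineages, -0.069 for Il1b with equal weight per cell, -1.18 for Hspb1 without doublets, 0.16 for Mmp12 without its top cell and 0.40 for Srgn in male cells. The median of the chemokine ligands was 2.29 in male cells. The cause of these was not tested. The median of all genes ran from -0.12 to 0.00 over the settings. With 53 and 103 cells, genes under 50 UMIs could not be compared closely.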
